A study of Mus musculus with 9 samples.

Results

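The forestomach, the non-glandular part of the mouse stomach that is lined by stratified squamous epithelium, was compared with the corpus, the acid-secreting glandular part that lies next to it. The comparison used 6 of the 9 arrays of the study, 3 titled Forestomach and 3 titled Corpus, and took in every probe set that the platform annotation gives to a single gene, 34945 of 45101. After a filter on dim probe sets and with 1 probe set kept per gene, 13637 genes were tested of the 18193 named on the array. The mice were 9 healthy, untreated female C57Bl/6 animals aged 3 months. A stripe of tissue 600 to 800 µm wide was cut from each zone, the third zone being the squamocolumnar junction between both. Tissue from 3 mice was pooled for each of 3 series, so each zone has 3 arrays of separate mice, and arrays with the same series number come from the same mice. Differences among 3 arrays of the same zone therefore hold variation between pools of mice as well as technical error.

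Squamous epithelium renews itself from a basal layer whose cells move outward, fill with keratin and lipid and die as flat sheets held together by a cornified envelope. The glands of the corpus are a single layer of columnar cells, in which parietal cells pump acid with energy from densely packed mitochondria, chief cells secrete pepsinogen and mucous cells coat the surface. Transcription factors of the GATA, FOXA and HNF4 families are known to hold gut epithelium in its columnar form, whereas SOX2, p63, GRHL3 and the AP-2 factors are known from the esophagus, the skin and other squamous layers.

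The labels call both tissues epithelium. Measured against marker lists, the zones were the labelled ones: 27 of 27 cornified layer genes were higher in the forestomach. Lower were 14 of 14 parietal cell genes and 9 of 10 chief cell genes, and the remaining chief cell gene did not pass. Other marker lists were less uniform. Squamous basal layer genes were higher in 8 of 12 and lower in 2. Surface and neck mucous cell genes were lower in 9 of 13 and higher in 1. The stripes held more than epithelium, since the smooth muscle actin gene Acta2 had signals of 9873, 12222 and 8612 in the corpus and 14405, 15474 and 15062 in the forestomach. Each corpus-high marker gene on a forestomach array was taken as a percent of its corpus mean. The median over parietal cell genes was 1.30%, 3.18% and 5.22% on forestomach arrays 1, 2 and 3, and over chief cell genes 5.51%, 5.51% and 9.82%. Medians were 0.525%, 7.54% and 6.96% for surface and neck mucous cell genes and 21.4%, 14.8% and 8.74% for gastric endocrine genes. A median weighs dim and bright genes alike. The summed signal of endocrine genes was 528 to 702 on forestomach and 15218 to 17889 on corpus arrays. That of parietal cell genes was 10463 to 12374 and 67669 to 87564. For surface and neck mucous cell genes it was 5720 to 34727 and 69854 to 99171, so forestomach arrays differed widely. The sums take in all tested members of a list, also those not lower in the forestomach. Forestomach-high cornified layer genes on corpus arrays 1, 2 and 3 had medians of 1.84%, 1.24% and 1.22% of their forestomach means. The 8 forestomach-high squamous basal layer genes had 2.49%, 1.27% and 2.22%. Pancreatic acinar genes were lower in the forestomach in 4 of 5 (summed signal 183 to 245 against 2127 to 2291), hepatocyte genes in 4 of 5 and enterocyte genes in 5 of 7. Skeletal muscle genes were higher in 2 of 8, with a summed signal of 813 to 2716 against 392 to 520 and with Myh1 and Myh4 not above the filter. A sign of RNA quality, the signal of the Gapdh control at its 3′ end over that at its 5′ end, was 0.789 to 0.926 on forestomach and 0.697 to 0.754 on corpus arrays without overlap, and that of actin was 1.57 to 1.73 and 1.58 to 1.74. The part of these differences in the results was not tested. Forestomach arrays 2 and 3 had higher medians of parietal and mucous cell genes than array 1. Values without them are given where they move a result. The forestomach then has 1 array, and its spread is taken to be that of the other zones. These are bulk samples, so fewer cells of a type and less RNA per cell cannot be told apart.

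Values below are MAS5 signals, on a linear scale and in the order of arrays 1, 2 and 3. A fold and a log2 difference (forestomach minus corpus, ± SE of the fit) are on the scale of log2(signal + 9.8), which understates the change of dim genes, and adjusted p values are from limma over all 13637 genes. A gene is called when its adjusted p is under 0.05. A range after a log2 difference gives its lowest and highest value over 20 alternative ways of processing, and is printed where one that keeps all arrays moves the fold by over 1.5 times. Values without an array or series that do so are given at the end of a paragraph. Of all genes tested, 59.9% were called, 30.0% (4085) as higher and 29.9% (4083) as lower in the forestomach, and the 3 arrays of one zone lay apart from the 3 of the other for 9050 genes. By 2-fold or more, 1798 genes were higher and 1687 lower, and the median log2 difference of all genes was -0.01. A count within a list is read against these shares. Of the genes above the filter on all 6 arrays, 10872 in number, 60.9% were called, and 398 genes were above it on every forestomach but no corpus array, against 323 the other way round.

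**Figure D1:**
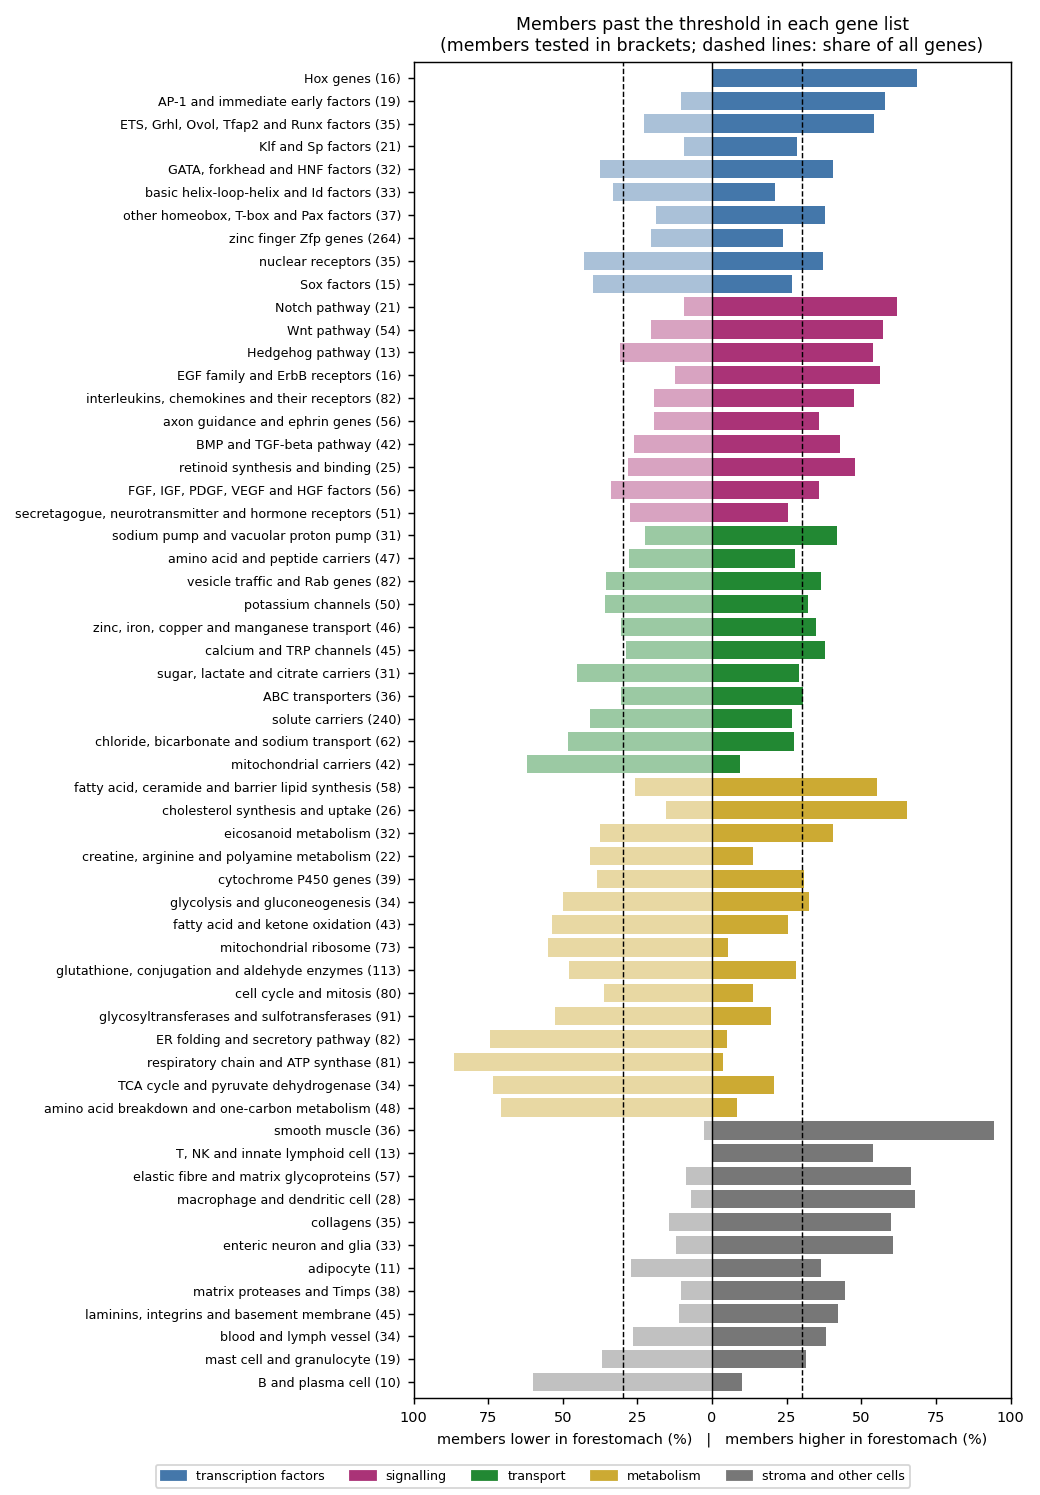
Share of the tested members of each gene list that were higher (right, full colour) or lower (left, pale colour) in the forestomach at an adjusted p under 0.05, for lists of factors, signalling, transport, metabolism and stroma with 10 or more tested members. The marker lists that check the tissue are not drawn. The dashed lines mark the shares over all genes, 30.0% higher and 29.9% lower. Of the lists drawn, smooth muscle reaches the furthest to the right (94.4%) and the respiratory chain and ATP synthase the furthest to the left (86.4%).

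Hox genes, which give cells a position along the body axis, were higher in the forestomach in 11 of 16 tested members and lower in 0 (1 without the filter on dim probe sets), against 30.0% and 29.9% of all genes. The largest differences lay in the C cluster. Hoxc8 had signals of 15, 18.6 and 6.2 in the corpus and 2005, 1759 and 1722 in the forestomach (81.8-fold, log2 difference 6.35 ± 0.24, range 5.40 to 7.12, adjusted p = 1.76e-07). Hoxc5 had 24.2, 32.4 and 23.9 in the corpus and 1191, 1094 and 1154 in the forestomach (31.7-fold, log2 difference 4.99 ± 0.15, range 4.15 to 5.38, adjusted p = 8.8e-08). Hoxc4 had 43.1, 69 and 54.9 in the corpus and 754, 681 and 715 in the forestomach (11.2-fold, log2 difference 3.49 ± 0.19, adjusted p = 8.47e-07). Hoxc8 and Hoxc5 were at or near the floor of the arrays in the corpus, Hoxc4 was dim there, and all 3 were bright in the forestomach with no overlap. Hoxc6, in the same cluster, differed less, with a log2 difference of 1.79. With the pseudocount of 9.8, members of the A and B clusters differed by less than 3 log2 units. Hoxa5, Hoxb3, Hoxb5, Hoxb6 and Hoxa7 had log2 differences of 1.31, 1.57, 1.32, 1.59 and 2.46 (range 1.57 to 3.46), and Hoxa2, Hoxa3, Hoxa4, Hoxa9 and Hoxb2 did not pass. Hoxa7 too was at the floor of the arrays in the corpus (7.9, 7.3 and 4.4). Its log2 difference was 3.46 with a pseudocount of 1. Hox genes are known from stroma as well as epithelium, and the smooth muscle list rose beside them (summed signal 142610 to 156455 on forestomach and 62257 to 84404 on corpus arrays); its part in the Hox result was not tested.

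Among 37 other homeobox, T-box and Pax factors 14 were higher and 7 lower. Pitx1, a hindlimb and jaw factor that is also found in oral and esophageal epithelium, had signals of 238, 367 and 259 in the corpus and 3195, 3096 and 3129 in the forestomach (10.8-fold, log2 difference 3.43 ± 0.19, adjusted p = 1.03e-06). Barx1, which patterns the stomach from its mesenchyme, had 278, 356 and 145 in the corpus and 703, 681 and 599.6 in the forestomach (2.64-fold, log2 difference 1.40 ± 0.30, adjusted p = 0.00331). Prrx1, a mesenchymal factor, went from 24.6 ± 4.38 to 162 ± 16.6 (mean ± SD, n = 3 each) (4.99-fold, log2 difference 2.32 ± 0.16, range 1.51 to 2.67, adjusted p = 4.2e-06), and the keratinocyte factor Dlx3 from 30.2 ± 5.98 to 248 ± 38.9 (mean ± SD, n = 3 each) (6.45-fold, log2 difference 2.69 ± 0.23, range 1.01 to 3.0, adjusted p = 1.36e-05). The arrays did not overlap for these 4 genes. The Meis pair, cofactors of Hox proteins, was higher too, with log2 differences of 2.08 (range 1.08 to 2.30) for Meis1 and 1.77 for Meis2. Irx1, Irx2 and Irx3 were higher at 2.19, 2.0 and 1.41, while Irx5 was lower at -0.95, so members of one family differed in opposite directions. Isl1, known from gastric mesenchyme and endocrine cells, had 620, 625 and 694 in the corpus and 96, 63.2 and 123 in the forestomach (6.49-fold, log2 difference -2.70 ± 0.27, adjusted p = 3.49e-05). Cux1 had 841, 679 and 689 in the corpus and 246, 251 and 259 in the forestomach (2.84-fold, log2 difference -1.51 ± 0.15, range -1.57 to -0.68, adjusted p = 3.2e-05). Sox factors divided as well, with 4 of 15 higher and 6 lower. Sox2, which marks the foregut and its squamous progenitors, had 363, 246 and 332 in the corpus and 1368, 1488 and 1447 in the forestomach (4.52-fold, log2 difference 2.18 ± 0.18, adjusted p = 9.89e-06), so it was well above the filter in the corpus too. Sox6, a factor of muscle and cartilage, had 98, 101 and 90.5 in the corpus and 614, 577 and 596 in the forestomach (5.7-fold, log2 difference 2.51 ± 0.10, adjusted p = 1.77e-07). Sox9, a factor of gut progenitor cells, had 338, 237 and 295 in the corpus and 52.5, 30.1 and 21.6 in the forestomach (6.95-fold, log2 difference -2.80 ± 0.25, adjusted p = 1.77e-05), and Sox4 was lower at -1.07.

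GATA, forkhead and HNF factors were called in both directions, 13 of 32 higher and 12 lower, with the gut factors at the lower end. Hnf4a, a nuclear receptor of gut and liver epithelium, was lower at -5.20 (range -6.47 to -3.74). Gata6 had signals of 1800.4, 1797 and 1764 in the corpus and 34.8, 55.5 and 70.2 in the forestomach (29.2-fold, log2 difference -4.87 ± 0.19, range -5.33 to -4.23, adjusted p = 1.81e-07). Gata4 had 1067, 974 and 951 in the corpus and 45.3, 57.4 and 85.8 in the forestomach (14.2-fold, log2 difference -3.83 ± 0.21, adjusted p = 9.27e-07). The third member known from gut endoderm, Gata5, had 249, 292 and 333 in the corpus and 26.1, 41.8 and 16.4 in the forestomach (8.2-fold, log2 difference -3.04 ± 0.23, adjusted p = 6.66e-06). The 3 GATA genes were low on every forestomach array, with no overlap. Gata3, known from squamous epithelia and T cells, went the opposite way, with 1.2, 2.1 and 2 in the corpus and 157, 147 and 181 in the forestomach (14.8-fold, log2 difference 3.88 ± 0.33, range 2.55 to 5.89, adjusted p = 1.36e-05); its corpus values lie at the floor of the arrays. The pioneer factors Foxa1, Foxa2 and Foxa3 open chromatin in gut endoderm. Foxa1 had 4012, 3656 and 3509.9 in the corpus and 304, 304 and 319.8 in the forestomach (11.7-fold, log2 difference -3.55 ± 0.12, adjusted p = 1.02e-07), so it was low but above the filter in the forestomach. Foxa2, Foxa3 and Foxq1, which is known from surface mucous cells, were lower at -4.81 (range -5.90 to -3.95), -4.33 (range -4.82 to -3.62) and -2.50. Foxn1, the factor of hair and thymic epithelium, and Foxp2 were higher at 2.24 (range 1.52 to 2.83) and 1.91. Hnf4a had log2 differences of -6.47 without forestomach arrays 2 and 3, -4.56 without forestomach array 1 and -4.61 without series 1. Foxa2 had a log2 difference of -5.90 without forestomach arrays 2 and 3.

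Factors of the ETS, Grhl, Ovol, Tfap2 and Runx families were higher in 19 of 35 members and lower in 8. Grhl3, which is needed for the skin barrier, had signals of 38.1, 12.9 and 17 in the corpus and 1207, 1326 and 1165 in the forestomach (40.3-fold, log2 difference 5.33 ± 0.29, range 4.59 to 5.85, adjusted p = 9.24e-07). Its relative Grhl1 was higher as well at 2.64, but Grhl2, which is common to simple and stratified epithelia, had 479, 449.9 and 446 in the corpus and 426, 407 and 447 in the forestomach and did not pass (adjusted p = 0.45), with a log2 difference of -0.10 (range -0.78 to 0.01). Tfap2a, an AP-2 factor of keratinocytes, had 37.5, 57.2 and 39.6 in the corpus and 381, 389.5 and 328 in the forestomach (6.96-fold, log2 difference 2.80 ± 0.20, adjusted p = 5.14e-06). Its relative Tfap2c had 1.7, 18.9 and 10.9 in the corpus and 515, 518 and 469.8 in the forestomach (26.9-fold, log2 difference 4.75 ± 0.31, range 3.70 to 5.86, adjusted p = 2.85e-06). Within the Grhl family members therefore ranged from no call to a large rise. Hopx, a homeodomain protein that binds no DNA, had 219.5, 206 and 139.6 in the corpus and 9972, 11082 and 10797 in the forestomach (54.5-fold, log2 difference 5.77 ± 0.20, adjusted p = 1.16e-07). Epithelial ETS factors went both ways: Elf5 and Ehf were higher at 3.62 (range 2.28 to 4.39) and 2.89, while Elf3 had 1911, 2175 and 1846 in the corpus and 121, 184 and 157 in the forestomach (12.2-fold, log2 difference -3.61 ± 0.16, adjusted p = 2.92e-07). Spdef, a factor of mucous cells, had 584, 498 and 608 in the corpus and 3.7, 3.7 and 5 in the forestomach (41-fold, log2 difference -5.36 ± 0.12, range -6.79 to -4.08, adjusted p = 6.19e-08). Tfcp2l1, known from ducts of the kidney and salivary gland, had 876, 889 and 971 in the corpus and 17.9, 66.2 and 28.3 in the forestomach (21.3-fold, log2 difference -4.42 ± 0.31, adjusted p = 3.91e-06), and Runx1 was lower at -2.23 (range -2.62 to -1.54). Among Klf and Sp factors 6 of 21 were higher and 2 lower, and 3 were higher without series 1. The count of lower members was 1 without series 2 or series 3 and with median centring. Klf4, which is found in the outer layers of many epithelia, had 5429.7, 5657 and 6259 in the corpus and 6109.6, 6966 and 5709 in the forestomach (log2 difference 0.11, adjusted p = 0.457), which overlap. Sp6 was higher at 3.60 (range 1.82 to 4.10). Tfcp2l1 had a log2 difference of -5.05 without forestomach arrays 2 and 3. Grhl2 passed with probe sets averaged per gene (adjusted p = 0.000871).

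**Figure D2:**
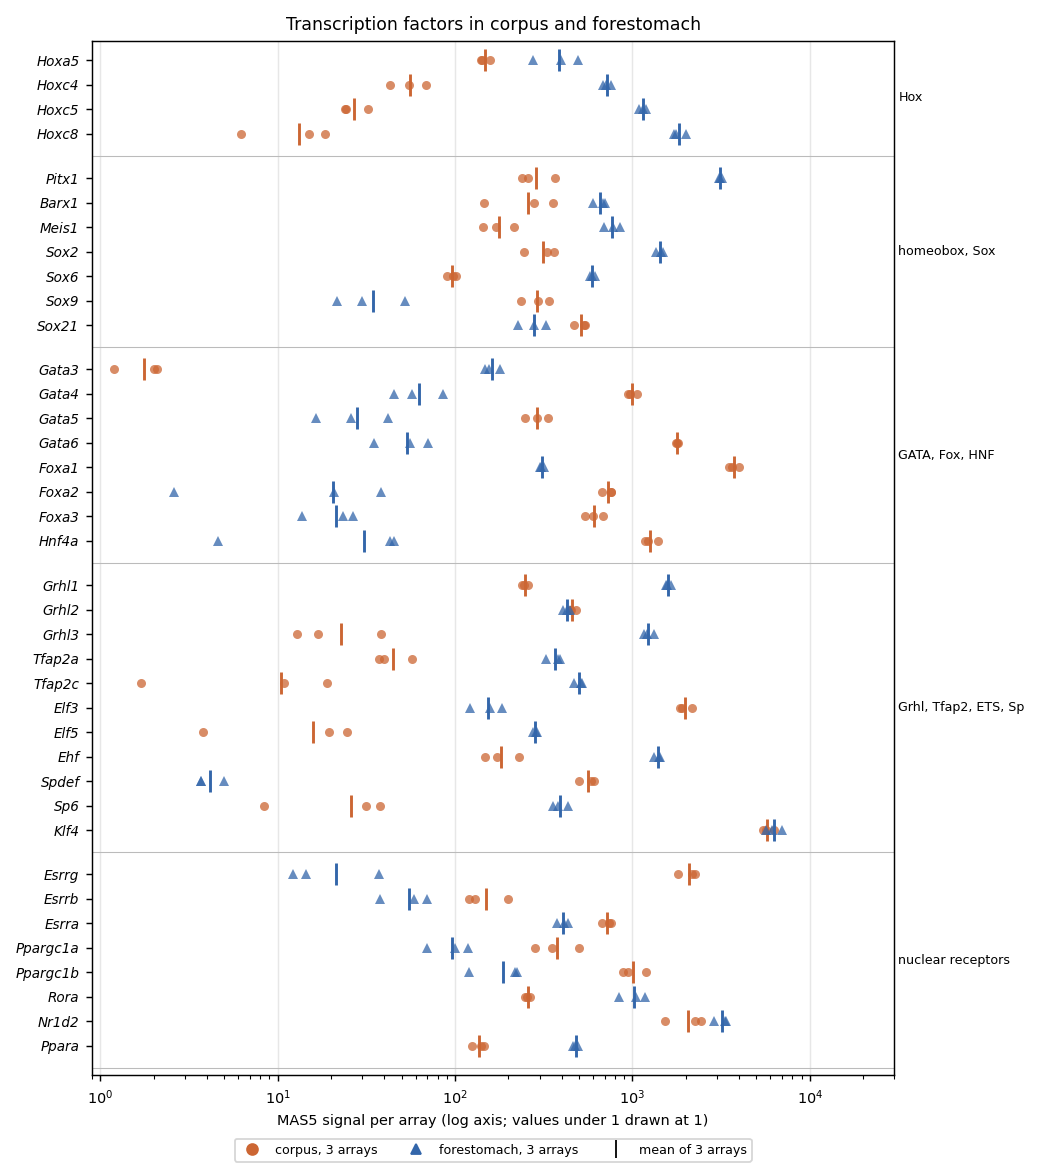
MAS5 signal of 38 transcription factors on each of the 3 corpus (circles) and 3 forestomach arrays (triangles), on a log axis, with the mean of each zone as a vertical bar. Hoxc4, Hoxc5, Hoxc8, Grhl1, Grhl3, Tfap2a and Tfap2c lie to the right in the forestomach and Gata4, Gata5, Gata6, Hnf4a and the Foxa genes in the corpus, whereas the points of Klf4 and Grhl2 overlap.

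Nuclear receptors and their coactivators were called in both directions, 13 of 35 higher (8 without series 3) and 15 lower. The largest difference was that of Esrrg, an orphan receptor that drives genes of mitochondrial energy metabolism, with 2175, 1802 and 2252 in the corpus and 12.2, 14.4 and 37.4 in the forestomach (70.9-fold, log2 difference -6.15 ± 0.28, range -6.70 to -3.36, adjusted p = 3.32e-07). Its relatives Esrrb and Esrra were lower by less, with log2 differences of -1.29 and -0.82. The coactivators of these receptors were lower as well: Ppargc1a had 498, 283 and 353 in the corpus and 101, 69.7 and 118 in the forestomach (3.63-fold, log2 difference -1.86 ± 0.35, adjusted p = 0.0017). Ppargc1b had 1202, 942 and 889 in the corpus and 225, 218 and 120.1 in the forestomach (5.31-fold, log2 difference -2.41 ± 0.23, adjusted p = 2.71e-05). Receptor, relatives and coactivators were all lower in the forestomach, without overlap between the zones. Nr0b2, a repressor of other receptors, was lower at -3.73 (range -4.29 to -2.99) and Pparg at -1.42. Esr1, the estrogen receptor, had 47.6, 43.8 and 58.4 in the corpus and 209.8, 234 and 235 in the forestomach (3.97-fold, log2 difference 1.99 ± 0.12, adjusted p = 1.36e-06), and Rora was higher at 1.94 and Ppara at 1.74. Clock factors differed in part: Clock was higher at 1.72 (range 1.07 to 1.83) and Dbp at 1.0, whereas Per2 had a log2 difference of -0.17 and did not pass. Dbp did not pass without series 3 (adjusted p = 0.0696). Esrrb did not pass without forestomach arrays 2 and 3 (adjusted p = 0.109) and without series 1 (adjusted p = 0.0892).

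Immediate early and AP-1 genes, which respond to stress and growth signals, were higher in 11 of 19 members and lower in 2. Egr3 had signals of 29.2, 6.6 and 16.3 in the corpus and 1673, 949.8 and 925 in the forestomach (44.9-fold, log2 difference 5.49 ± 0.33, range 2.78 to 6.17, adjusted p = 1.75e-06). Ier3 had 517, 523 and 629 in the corpus and 1662, 1596 and 1241 in the forestomach (2.65-fold, log2 difference 1.41 ± 0.14, adjusted p = 3.11e-05). Both were higher without overlap. Egr1 had 522, 496 and 443 in the corpus and 3753, 1476 and 724 in the forestomach, so its forestomach arrays spread over a wide range (3.23-fold, log2 difference 1.69 ± 0.48, adjusted p = 0.0148). Fos went the other way, with 1507, 1444 and 1378 in the corpus and 1074, 312 and 339 in the forestomach (2.93-fold, log2 difference -1.55 ± 0.40, adjusted p = 0.00905). Fosl2 was higher at 0.56, and Junb and Fosl1 did not pass. The count of lower members was 0 without series 2, series 3 or forestomach arrays 2 and 3, 1 without corpus array 3 or forestomach array 3 and with median centring, and 4 without forestomach array 1. Egr1 had log2 differences of 2.92 without forestomach arrays 2 and 3 and 1.07 without forestomach array 1. Fos had a log2 difference of -0.42 without forestomach arrays 2 and 3. Egr1 did not pass without series 2 (adjusted p = 0.102). Fosl2 did not pass with probe sets averaged per gene (adjusted p = 0.49). Fos did not pass without series 2 (adjusted p = 0.1), without forestomach arrays 2 and 3 (adjusted p = 0.0743) and without series 3 (adjusted p = 0.0911).

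Because members of the cornified layer list move together, their promoters were looked at, in the 250 bases before each start in the RefSeq table (GRCm38.p6). The letters TGANTCA, the core of an AP-1 site, on either strand, were present in 10 of 21 promoters (47.6%) of the 19 list genes that the table holds, against 6.75% of all 32841 promoters, 5.02% of those of genes tested, 6.91% of those of genes higher by 2-fold or more and 6.07% of those of genes lower by 2-fold or more. These letters were chosen with the values known. Many of these genes lie in 1 cluster on chromosome 3 and share sequence, so the promoters are not independent. Stretches around the match are shown for 5 of them to let the sites be compared, each 5′ to 3′ on the strand of the gene, with the match in capitals.
Ivl: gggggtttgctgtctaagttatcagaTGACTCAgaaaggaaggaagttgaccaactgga
Lor: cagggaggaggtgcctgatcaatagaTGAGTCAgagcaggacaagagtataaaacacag
Flg: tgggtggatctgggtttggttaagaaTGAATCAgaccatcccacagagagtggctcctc
Sprr2d: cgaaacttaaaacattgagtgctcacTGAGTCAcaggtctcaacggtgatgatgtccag
Sbsn: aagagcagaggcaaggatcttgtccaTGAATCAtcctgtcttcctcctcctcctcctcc
The windows lie at chr3:92573819-92573877 (- strand) for Ivl, chr3:92083158-92083216 (- strand) for Lor, chr3:93273417-93273475 (+ strand) for Flg, chr3:92338921-92338979 (+ strand) for Sprr2d and chr7:30751326-30751384 (+ strand) for Sbsn. Within the capitals only the middle base can differ. Lor, Ivl and Flg encode proteins of the cornified envelope and the keratin matrix, and the genes had log2 differences of 5.32 (Ivl), 4.75 (Lor), 6.77 (Flg), 5.10 (Sprr2d) and 5.97 (Sbsn) (limma, adjusted p between 6.19e-08 and 6.33e-07). A match is a description of letters and no evidence of binding. The same search with AGATAA for Gata4 and its relatives, AACCNGTT for Grhl factors and TNAAGGTCA for estrogen-related receptors found shares of 9.99%, 1.79% and 1.14% in all promoters and of 6.25%, 1.62% and 0.723% in those of genes tested. In genes lower by 2-fold or more these were 7.11%, 1.68% and 0.809%, and in genes higher by 2-fold or more 7.13%, 1.97% and 0.506%. The letters for estrogen-related receptors were in 1 of 65 promoters (1.54%) of respiratory chain genes that were lower. TGANTCA was in 12.5% of promoters of lower parietal cell genes (2 of 16) and 7.69% of those of lower respiratory chain genes. For lower genes of ER folding, the mitochondrial ribosome and the citric acid cycle it was 5.56%, 2.56% and 0%. AGATAA, AACCNGTT and TNAAGGTCA were in 2, 1 and 0 of the 21 cornified layer promoters.

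Basic helix-loop-helix and Id factors were higher in 7 of 33 (4 without series 3) and lower in 11. Bhlha15, the secretory factor Mist1 of chief cells, had 985, 681 and 745 in the corpus and 26.3, 5 and 20.6 in the forestomach (31.7-fold, log2 difference -4.99 ± 0.37, range -5.70 to -3.54, adjusted p = 6.13e-06). The targets of BMP signalling Id1, Id2 and Id3 were lower together, at -0.76, -0.63 and -0.89, while Id4 was higher at 1.79 (range 1.18 to 1.90). Hand2, a factor of gut mesenchyme and enteric neurons, had 179, 285 and 291 in the corpus and 1317, 1004 and 1011 in the forestomach (4.35-fold, log2 difference 2.12 ± 0.20, adjusted p = 2.26e-05). Of 264 Zfp zinc finger genes, 63 were higher and 54 lower, shares of 23.9% and 20.5% that lie below those of all genes, with 41 higher without series 3 and 38 without forestomach arrays 2 and 3. Their largest rise was that of Zfp185, which had 7.3, 30.1 and 8.3 in the corpus and 1096, 945 and 942 in the forestomach (43.3-fold, log2 difference 5.44 ± 0.33, range 4.51 to 6.21, adjusted p = 1.79e-06). Zfp750 came next, which drives the last steps of keratinocyte differentiation, and had 123, 128 and 112 in the corpus and 761, 827 and 817 in the forestomach (6.21-fold, log2 difference 2.63 ± 0.16, adjusted p = 2.01e-06).

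Signalling genes differed by pathway. In the hedgehog pathway the ligands were lower. Shh had signals of 1868, 1846 and 1897 in the corpus and 20.8, 69.2 and 65.4 in the forestomach (33.2-fold, log2 difference -5.05 ± 0.31, range -5.94 to -3.57, adjusted p = 1.94e-06). Ihh had 314, 258 and 267 in the corpus and 29, 45 and 34.9 in the forestomach (6.32-fold, log2 difference -2.66 ± 0.17, adjusted p = 2.72e-06). Hhip, a decoy receptor that hedgehog signalling induces, had 165, 201 and 160.2 in the corpus and 24.7, 34.6 and 7.1 in the forestomach (6.23-fold, log2 difference -2.64 ± 0.32, range -3.17 to -1.99, adjusted p = 0.000127). Gli1, another readout of the pathway, had 87.1, 81.8 and 45.2 in the corpus and 27.1, 26.7 and 37.9 in the forestomach (1.97-fold, log2 difference -0.98 ± 0.23, adjusted p = 0.00589). Ptch1, the receptor, had 509, 487 and 439 in the corpus and 598, 396 and 492 in the forestomach (log2 difference 0.03, adjusted p = 0.861), which overlap. The coreceptor Gas1 had 474, 563 and 579 in the corpus and 3075, 4071 and 4797 in the forestomach (7.18-fold, log2 difference 2.84 ± 0.16, range 1.46 to 3.02, adjusted p = 1.26e-06), Cdon and Boc were at 1.45 and 0.96, the transducer Smo at 1.15, and Gli2 and Gli3 at 1.24 and 1.28. In all, 7 of 13 members were higher and 4 lower. The ligands, Hhip and Gli1 were on the lower side and the coreceptors, Smo, Gli2 and Gli3 on the higher, with Ptch1 on neither. Shh had a log2 difference of -5.94 without forestomach arrays 2 and 3. Gli1 did not pass without series 1 (adjusted p = 0.0734) and without series 2 (adjusted p = 0.0943).

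Wnt pathway genes were higher in 31 of 54 members (57.4%) and lower in 11, or 7 without series 2. Wnt4 had signals of 150, 111 and 132 in the corpus and 1694, 1665 and 1625 in the forestomach (11.9-fold, log2 difference 3.58 ± 0.14, adjusted p = 2.1e-07). The ligands Wnt7b, Wnt10a, Wnt9a and Wnt3a were also higher, at 1.87, 3.22 (range 2.42 to 3.86), 1.15 and 1.43, whereas Wnt7a was lower at -1.62 (range -2.30 to -0.99) and Wnt11 had 139.5, 176 and 178 in the corpus and 76, 61.1 and 41.7 in the forestomach (2.55-fold, log2 difference -1.35 ± 0.18, adjusted p = 0.000259). The secreted antagonist Sfrp2 had 66.5, 46 and 38.5 in the corpus and 571, 635 and 589 in the forestomach (10.3-fold, log2 difference 3.36 ± 0.19, adjusted p = 1.17e-06). Sfrp1 had 633, 798 and 703 in the corpus and 1821, 1707 and 1989 in the forestomach (2.57-fold, log2 difference 1.36 ± 0.12, adjusted p = 1.59e-05). Dkkl1, a relative of the Dickkopf proteins, had 8.7, 6.6 and 2.7 in the corpus and 609, 604 and 640.4 in the forestomach (40.2-fold, log2 difference 5.33 ± 0.25, range 4.14 to 6.58, adjusted p = 3.96e-07). Rspo3, a stromal amplifier of Wnt signals, was higher at 2.24 and Rspo1 at 1.89. Its receptor gene Lgr5, a marker of gastric stem and chief cells, had 215, 193 and 180.5 in the corpus and 4.9, 44.6 and 38 in the forestomach (6.1-fold, log2 difference -2.61 ± 0.43, range -3.81 to -1.95, adjusted p = 0.000785). Among Frizzled receptors Fzd1, Fzd2, Fzd6, Fzd7 and Fzd10 were higher and Fzd4 and Fzd5 lower, and Fzd5 had 719, 702 and 879.5 in the corpus and 179, 187 and 189.7 in the forestomach (3.96-fold, log2 difference -1.99 ± 0.12, adjusted p = 1.7e-06). The feedback targets Axin2, Nkd1 and Nkd2 were higher at 1.28, 1.75 and 1.44, while Rnf43 was lower at -0.36 and Znrf3 did not pass. Lgr5 had log2 differences of -3.81 without forestomach arrays 2 and 3, -2.01 without forestomach array 1 and -1.95 without series 1. Rnf43 did not pass in 11 of 20 alternatives, among them those without corpus array 1, forestomach arrays 2 and 3, forestomach array 1, forestomach array 2, forestomach array 3, series 1, series 2 and series 3 (adjusted p up to 0.268). Wnt3a and Rspo1 did not pass without forestomach arrays 2 and 3 (adjusted p = 0.0798 and 0.0761).

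In the BMP and TGF-beta pathway 18 of 42 members were higher and 11 lower. Bmp2 had signals of 1375, 1963 and 1940.1 in the corpus and 323, 321 and 546 in the forestomach (4.43-fold, log2 difference -2.15 ± 0.22, adjusted p = 4.63e-05). Bmp5 had 409, 449 and 407 in the corpus and 79.3, 98.1 and 109 in the forestomach (4.13-fold, log2 difference -2.04 ± 0.14, adjusted p = 3.21e-06). The inhibitory Smads, which BMP signals induce, were lower: Smad6 had 688, 758 and 826 in the corpus and 212, 179.5 and 182 in the forestomach (3.81-fold, log2 difference -1.93 ± 0.13, adjusted p = 2.88e-06) and Smad7 was at -1.61. Bmp4 had 749.8, 694 and 591 in the corpus and 454, 436 and 466 in the forestomach (1.48-fold, log2 difference -0.57 ± 0.13, adjusted p = 0.00448), and Bmp7 was higher at 1.43. The antagonists and binding proteins Nbl1, Nog, Chrdl1 and Fst were higher at 1.97, 1.41 (range 0.86 to 2.01), 1.40 and 1.34, while Chrd and Grem1 did not pass. The latent TGF-beta binding proteins Ltbp1, Ltbp3 and Ltbp4 were higher at 1.21, 1.73 and 0.79, and the coreceptor Tgfbr3 at 1.77 (range 1.15 to 1.92), whereas Tgfb1 itself was lower at -0.89. Nog did not pass without forestomach arrays 2 and 3 (adjusted p = 0.0673). Tgfb1 did not pass with probe sets averaged per gene (adjusted p = 0.0717). Bmp4 did not pass without forestomach arrays 2 and 3 (adjusted p = 0.0624) and without series 2 (adjusted p = 0.0665).

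Notch pathway genes were higher in 13 of 21 members, or 61.9%, and lower in 2, or 1 without series 2, series 3, corpus array 3, forestomach array 2 or forestomach arrays 2 and 3 and with median centring. The receptor Notch1 had 304, 341 and 349.9 in the corpus and 924, 804 and 838 in the forestomach (2.53-fold, log2 difference 1.34 ± 0.13, adjusted p = 2.83e-05). Notch3 had 228, 265 and 227 in the corpus and 713, 693 and 628 in the forestomach (2.76-fold, log2 difference 1.46 ± 0.10, adjusted p = 3.59e-06), and Notch2 was higher at 1.72 (range 0.93 to 1.83). The endothelial receptor Notch4 was lower at -1.73. The other lower member was Hes1, which lost its call in the alternatives that leave 1. The ligands Jag1, Jag2 and Dll1 were higher at 1.28 (range 0.19 to 1.39), 1.07 and 0.97. The largest rise was that of Nrarp, a feedback target of Notch, which had 186, 121 and 159 in the corpus and 2246, 2009.6 and 1804 in the forestomach (12.4-fold, log2 difference 3.63 ± 0.18, adjusted p = 5.36e-07). In the EGF family 9 of 16 members were higher and 2 lower, or 1 without any single series, any single corpus array, forestomach array 1, forestomach array 2 or forestomach arrays 2 and 3, with median centring and without the filter. Ereg, a keratinocyte growth factor, had 70.9, 91.5 and 94.2 in the corpus and 1639, 1785 and 1257 in the forestomach (16.4-fold, log2 difference 4.04 ± 0.18, adjusted p = 3.32e-07). Its receptor Egfr had 165, 204 and 194 in the corpus and 780.4, 718 and 762 in the forestomach (3.88-fold, log2 difference 1.96 ± 0.12, range 0.98 to 2.07, adjusted p = 1.58e-06). Egf was lower, with 656, 922 and 528 in the corpus and 102, 108 and 126 in the forestomach (5.71-fold, log2 difference -2.51 ± 0.27, adjusted p = 6.18e-05). FGF, IGF, PDGF, VEGF and HGF genes were called in both directions, 20 of 56 higher and 19 lower. Receptors Fgfr2 and Fgfr3, through which stroma signals to epithelium, were higher at 2.16 (range 1.17 to 2.30) and 2.01 (range 1.39 to 2.12), with the ligands Fgf7 and Fgf22 at 0.88 and 3.12 (range 2.25 to 3.95). Fgf10 had a log2 difference of 0.51 and did not pass, except without corpus array 1 (0.84, adjusted p = 0.032). Vegfa and its receptors Flt1 and Kdr were lower together, at -1.29, -1.72 and -1.39, whereas the lymphatic factors Vegfc and Vegfd and their receptor Flt4 were higher at 1.11, 1.95 and 0.72. Jag2 had a log2 difference of 1.69 without forestomach arrays 2 and 3. Jag1 and Flt4 did not pass with probe sets averaged per gene (adjusted p = 0.256 and 0.148). Jag2 did not pass without series 2 (adjusted p = 0.0605). Fgf7 did not pass without forestomach arrays 2 and 3 (adjusted p = 0.0518).

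Retinoids, derivatives of vitamin A that steer squamous differentiation, are handled by 25 tested genes, of which 12 were higher and 7 lower. Crabp2, which carries retinoic acid to its receptor, had signals of 5.2, 5.6 and 8.1 in the corpus and 1937, 1908 and 1980 in the forestomach (122-fold, log2 difference 6.93 ± 0.16, range 5.73 to 8.08, adjusted p = 6.19e-08). The retinol dehydrogenase Rdh12 had 34.7, 26.1 and 27.4 in the corpus and 2055, 2146 and 2097 in the forestomach (54-fold, log2 difference 5.76 ± 0.22, range 5.15 to 6.12, adjusted p = 1.76e-07). Cyp26b1, which degrades retinoic acid, had 29.9, 7.5 and 14.7 in the corpus and 227, 246 and 271 in the forestomach (10-fold, log2 difference 3.33 ± 0.29, range 2.55 to 3.95, adjusted p = 1.52e-05). All 3 were near the floor in the corpus. The retinol carriers Ttr (transthyretin), Rbp4 and Rbp7 were lower at -7.37 (range -8.82 to -6.61), -1.71 and -2.01. The retinoic acid synthesis enzymes went in opposite directions, Aldh1a1 at -0.63 and Aldh1a2 at 0.60. Aldh1a3 was called lower too, but it lost that call in several alternatives, among them those without series 1 or series 3 and with median centring. Ttr had log2 differences of -8.82 without forestomach arrays 2 and 3, -6.65 without forestomach array 1, -6.61 without series 1 and -8.06 without series 3. Aldh1a2 did not pass without forestomach arrays 2 and 3 (adjusted p = 0.0624).

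Receptors for secretagogues, neurotransmitters and hormones were higher in 13 of 51 and lower in 14. Among receptors known from acid and enzyme secretion, Cckar had 1817, 1898 and 1955 in the corpus and 7.7, 26.5 and 39 in the forestomach (60.5-fold, log2 difference -5.92 ± 0.34, range -6.76 to -5.16, adjusted p = 1.26e-06). The gastrin receptor Cckbr had 182, 147 and 193 in the corpus and 2.7, 4.7 and 9.8 in the forestomach (12-fold, log2 difference -3.58 ± 0.18, range -4.83 to -2.48, adjusted p = 5.79e-07). The histamine receptor Hrh2 had 249.5, 218 and 210.2 in the corpus and 21.4, 34 and 38.3 in the forestomach (5.83-fold, log2 difference -2.54 ± 0.19, adjusted p = 5.58e-06). The somatostatin receptor Sstr2 and the secretin receptor Sctr were lower at -3.13 and -2.50, and the muscarinic receptor Chrm3, at 70.6, 38.3 and 50.6 in the corpus and 25, 43.7 and 34.7 in the forestomach, did not pass (adjusted p = 0.172). The peptide receptors Vipr1 and Vipr2 were higher at 2.34 (range 1.61 to 3.03) and 1.27, and the retinoic acid-induced receptors diverged, Gprc5a at -3.59 and Gprc5b at 2.15. Cckar had a log2 difference of -6.76 without forestomach arrays 2 and 3. Vipr2 did not pass without forestomach arrays 2 and 3 (adjusted p = 0.0642).

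Interleukins, chemokines and their receptors were higher in 39 of 82 members (47.6%) and lower in 16, or 10 without series 2 and 8 without forestomach arrays 2 and 3. The largest rises were those of an interleukin-1 subfamily of surface epithelia. Il1f5, the antagonist of the interleukin-36 receptor, had signals of 113, 50.2 and 47.6 in the corpus and 6949, 7284 and 7244 in the forestomach (95.6-fold, log2 difference 6.58 ± 0.30, range 5.18 to 6.95, adjusted p = 3.36e-07). The agonist Il1f6 had 82.1, 35.7 and 41.6 in the corpus and 3954, 4928 and 4422 in the forestomach (73.9-fold, log2 difference 6.21 ± 0.28, adjusted p = 3.31e-07). A further agonist, Il1f8, had 51.8, 42.8 and 55.3 in the corpus and 2178, 2452 and 2525 in the forestomach (40.1-fold, log2 difference 5.33 ± 0.18, adjusted p = 1.15e-07). Their relative Il1f9 was at 5.19 and their receptor gene Il1rl2 at 2.27, so ligands, antagonist and receptor were all higher. Il1a, the receptor antagonist Il1rn and the decoy receptor Il1r2 were higher at 2.91 (range 2.07 to 3.72), 3.17 and 3.94, whereas Il1b was lower at -0.73. Il18 was bright in both zones and higher in the forestomach at 0.67. The largest fall was that of the chemokine Cxcl17, which had 1998, 1841 and 1968 in the corpus and 13.1, 96.6 and 75.7 in the forestomach (32.8-fold, log2 difference -5.04 ± 0.48, adjusted p = 2.76e-05). Ccl28, which attracts plasma cells, had 152, 206 and 137 in the corpus and 40.7, 31 and 52.4 in the forestomach (3.42-fold, log2 difference -1.77 ± 0.31, adjusted p = 0.00123). Il17re was lower at -1.70 and Il17rc higher at 2.82. Axon guidance and ephrin genes were higher in 20 of 56 and lower in 11, with the receptor Ephb6 at 14.7, 3.1 and 25 in the corpus and 511, 408 and 544 in the forestomach (22.2-fold, log2 difference 4.47 ± 0.36, range 3.54 to 5.35, adjusted p = 9.2e-06), Slit2 higher at 2.42 (range 1.58 to 2.60) and Sema3c lower at -1.41. Cxcl17 had log2 differences of -6.41 without forestomach arrays 2 and 3, -4.35 without forestomach array 1 and -4.33 without series 1. Il1b did not pass without forestomach arrays 2 and 3 (adjusted p = 0.182) and without series 2 (adjusted p = 0.117).

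**Figure D3:**
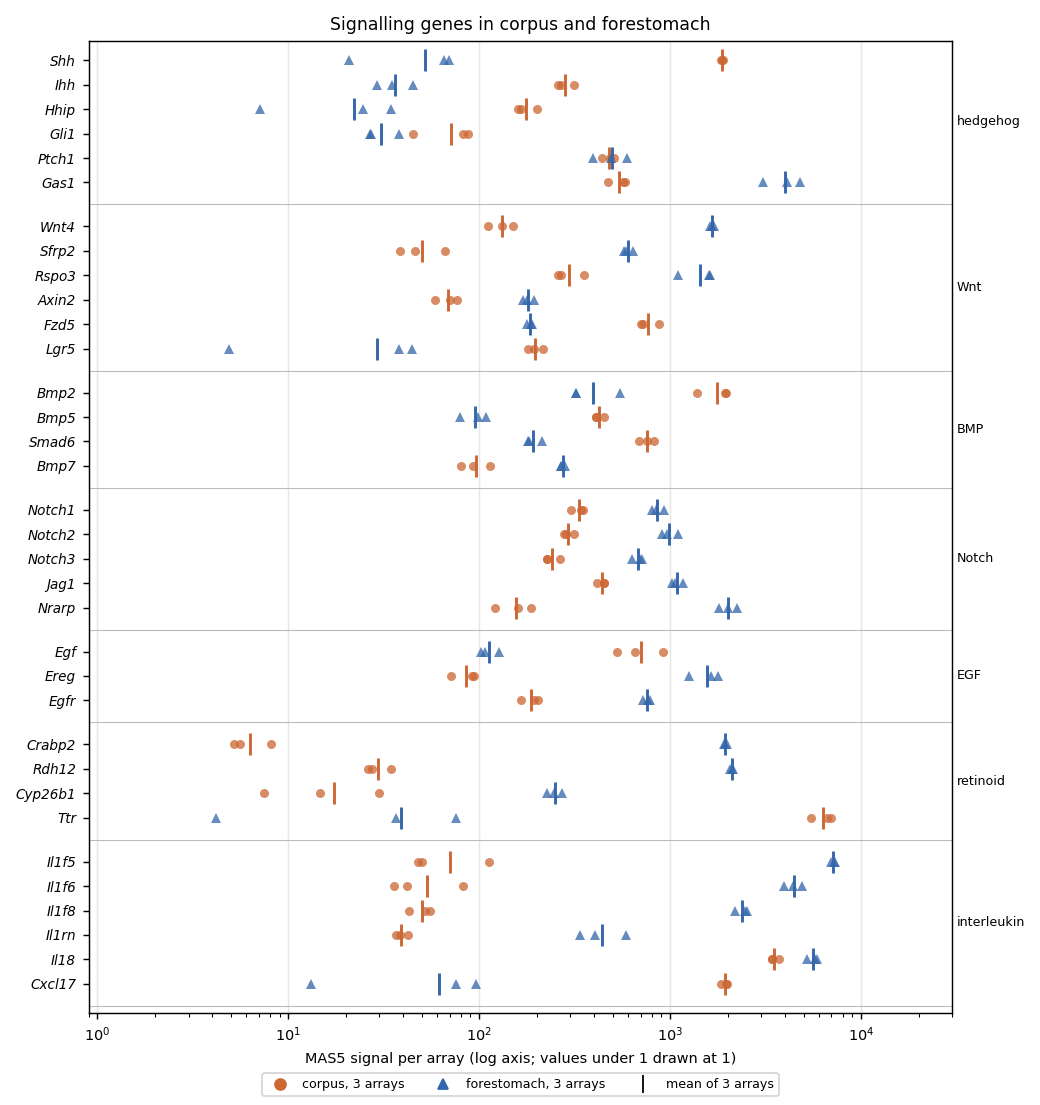
MAS5 signal of 34 signalling genes on the 3 corpus (circles) and 3 forestomach arrays (triangles), on a log axis, with each zone's mean as a vertical bar. Shh, Ihh, Bmp2, Egf, Ttr and Cxcl17 lie to the right in the corpus, Wnt4, Ereg, Crabp2 and the Il1f genes in the forestomach, and the points of Ptch1 overlap.

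Solute carriers, the largest family of membrane transporters, were higher in 64 of 240 members (26.7%) and lower in 98 (40.8%). Slc45a3 had signals of 1244, 1370.4 and 1563 in the corpus and 58.5, 67.5 and 55.4 in the forestomach (19.9-fold, log2 difference -4.32 ± 0.13, adjusted p = 8e-08). The thiamine pyrophosphate carrier Slc44a4 had 1227, 1170.1 and 1173 in the corpus and 4.7, 5.6 and 32.5 in the forestomach (56.7-fold, log2 difference -5.83 ± 0.35, range -6.78 to -4.81, adjusted p = 1.64e-06). The sodium iodide symporter Slc5a5 was lower at -3.87 (range -4.17 to -3.28). Slc46a2, known from thymic and skin epithelium, had 1.9, 4.8 and 1.2 in the corpus and 1181, 1238 and 1136 in the forestomach (96.8-fold, log2 difference 6.60 ± 0.23, range 5.18 to 8.47, adjusted p = 1.22e-07), and the nucleoside carrier Slc28a3 was higher at 4.40 (range 3.51 to 5.36). Sugar and lactate carriers were called both ways, 9 of 31 higher and 14 lower. The sodium-driven glucose carrier Slc5a1, the intestinal type, had 55.8, 53.2 and 34.9 in the corpus and 782, 830 and 648 in the forestomach (13.3-fold, log2 difference 3.74 ± 0.25, adjusted p = 2.71e-06), and its relative Slc5a9 was at 3.15 (range 2.61 to 3.76). Slc16a7, a lactate and pyruvate carrier, had 943, 923 and 865 in the corpus and 47.6, 75.7 and 71.4 in the forestomach (12.5-fold, log2 difference -3.64 ± 0.20, adjusted p = 9.27e-07). The insulin-dependent glucose carrier Slc2a4 had a log2 difference of -0.11 and did not pass. Amino acid and peptide carriers were higher in 13 of 47 and lower in 13. The peptide carrier Slc15a1 had 6, 11.9 and 2.9 in the corpus and 404, 349.5 and 362 in the forestomach (23.3-fold, log2 difference 4.54 ± 0.25, range 3.42 to 5.72, adjusted p = 8.75e-07). The neutral amino acid carrier Slc6a19 had 66.5, 48.5 and 41.5 in the corpus and 919, 843 and 916 in the forestomach (14.8-fold, log2 difference 3.88 ± 0.21, range 3.48 to 4.55, adjusted p = 8.05e-07), and the cystine carrier Slc7a11 was higher at 3.43 (range 2.55 to 4.35). Slc5a1, Slc15a1 and Slc6a19 are best known from the small intestine and were all higher in the forestomach, while Slc38a5 and Slc7a8 were lower at -3.66 (range -4.64 to -2.71) and -2.47. Slc38a5 had a log2 difference of -4.36 without forestomach arrays 2 and 3.

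The largest falls among potassium channels were those of Kcne2, Kcnj16 and Kcnq1. Kcnq1 and Kcne2 form the channel that recycles potassium to the proton pump. Kcnq1 had signals of 1469.8, 1348 and 1326 in the corpus and 14.4, 44.2 and 57.7 in the forestomach (31.2-fold, log2 difference -4.96 ± 0.34, adjusted p = 3.27e-06), and Kcne2 was at -6.75 (range -7.35 to -5.95). The inward rectifier Kcnj16 had 1354, 1628 and 1441 in the corpus and 1.8, 21.7 and 14.8 in the forestomach (71.2-fold, log2 difference -6.15 ± 0.32, range -7.20 to -5.13, adjusted p = 7.01e-07). Kcnj15 and Kcnj13 were lower too, at -4.58 and -3.74 (range -4.16 to -3.10). Kcnma1, a calcium-activated channel of smooth muscle, had 81.4, 138 and 114 in the corpus and 646, 587 and 614 in the forestomach (5.28-fold, log2 difference 2.40 ± 0.18, range 1.66 to 2.59, adjusted p = 5.22e-06), and the voltage-gated Kcnd3 and Kcna2 were higher at 1.63 and 1.53. Over the potassium channels 16 of 50 were higher and 18 lower, and 10 and 11 with a stricter filter, which tests fewer genes. Chloride, bicarbonate and sodium transport genes were lower in 30 of 62 and higher in 17. The exchanger Slc9a2 had 740.4, 698 and 655 in the corpus and 2.1, 40.8 and 20.8 in the forestomach (26.8-fold, log2 difference -4.74 ± 0.43, range -5.89 to -3.87, adjusted p = 2.05e-05), and the basolateral bicarbonate exchanger Slc4a2 was lower at -3.02. Carbonic anhydrases went both ways: Car9 had 2696, 2771 and 2801 in the corpus and 57.2, 55.6 and 126 in the forestomach (32.9-fold, log2 difference -5.04 ± 0.28, adjusted p = 9.53e-07). Car12 had 65.6, 39.9 and 29.2 in the corpus and 1276, 1252 and 1306 in the forestomach (24.4-fold, log2 difference 4.61 ± 0.30, range 3.42 to 4.88, adjusted p = 2.48e-06), and Car2 was bright in both zones and lower at -1.36. The sodium channel subunit Scnn1b and the exchanger Slc9a3 were higher at 2.02 and 2.68 (range 0.94 to 3.59). Kcnq1 had a log2 difference of -5.84 without forestomach arrays 2 and 3. Kcne2 had a log2 difference of -7.35 without forestomach arrays 2 and 3. Kcnj16 had a log2 difference of -7.0 without forestomach arrays 2 and 3. Slc9a2 had log2 differences of -5.89 without forestomach arrays 2 and 3 and -4.12 without series 1.

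Of the sodium pump and the vacuolar proton pump 13 of 31 members were higher and 7 lower. Beta subunits of the sodium pump went both ways: Atp1b1 had 9340.2, 9519.9 and 9591 in the corpus and 1307, 1432 and 1665 in the forestomach (6.46-fold, log2 difference -2.69 ± 0.11, adjusted p = 2.38e-07), while Atp1b3 and Atp1b2 were higher at 1.15 and 1.54 (range 0.77 to 1.71). The vacuolar pump subunit Atp6v1c2 had 19.9, 7 and 7.4 in the corpus and 584, 578 and 533 in the forestomach (28-fold, log2 difference 4.81 ± 0.25, range 3.83 to 5.66, adjusted p = 6.57e-07), and its ubiquitous relative Atp6v1c1 had a log2 difference of 0.11 and did not pass. Aquaporins, the water channels, were higher in 3 of 7 and lower in 3. Aqp4, of the basolateral parietal cell membrane, had 555, 379.7 and 492 in the corpus and 7.4, 2.9 and 11.1 in the forestomach (28.9-fold, log2 difference -4.85 ± 0.29, range -6.0 to -3.41, adjusted p = 1.46e-06), and Aqp11 and Aqp5 were lower at -3.76 (range -4.01 to -1.76) and -2.58 (range -3.44 to -1.75). Aqp9, Aqp1 and Aqp3 were higher at 3.59 (range 2.79 to 4.24), 1.59 and 0.72. Calcium and TRP channels were higher in 17 of 45 and lower in 13, with the stretch-gated channel Piezo1 at 147, 171 and 149 in the corpus and 623, 691 and 559.7 in the forestomach (3.83-fold, log2 difference 1.94 ± 0.12, adjusted p = 1.78e-06) and the inositol trisphosphate receptor Itpr3 at 1321, 1287 and 1336 in the corpus and 542, 455 and 440 in the forestomach (2.72-fold, log2 difference -1.44 ± 0.10, adjusted p = 3.74e-06). Atp6v1c1 passed with probe sets averaged per gene (adjusted p = 0.0215).

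Of 46 metal handling genes 16 were higher (34.8%) and 14 lower (30.4%), near the 30.0% and 29.9% of all genes. Mt4, the metallothionein of stratified epithelium, had signals of 367, 158 and 224 in the corpus and 12549.5, 12680.4 and 12480.3 in the forestomach (51.3-fold, log2 difference 5.68 ± 0.26, adjusted p = 3.35e-07), while Mt1 was lower at -0.98 (range -1.21 to -0.36) and Mt2 did not pass. Hmox1, which breaks down heme, had 79.1, 111 and 88.9 in the corpus and 1407, 1474 and 1549.5 in the forestomach (14.6-fold, log2 difference 3.87 ± 0.17, adjusted p = 3.05e-07). The hepcidin genes Hamp2 and Hamp, close copies whose signals may not be fully separate, were lower at -7.55 (range -8.46 to -6.55) and -2.27. Zinc carriers went both ways, with Slc39a4 and Slc39a11 lower at -3.45 and -2.64 and Slc39a6, Slc30a1 and Slc30a4 higher at 2.63 (range 1.62 to 2.79), 1.59 and 1.56. ABC transporters were higher in 11 of 36 and lower in 11, or 6 without forestomach arrays 2 and 3 and 7 without corpus array 1, corpus array 2, forestomach array 3, series 1 or series 2 and with a stricter filter. The lipid carrier Abca12, of the skin barrier, was higher at 3.10 (range 2.27 to 3.87) and the drug pump Abcb1b at 2.53 (range 1.93 to 2.98). Of 82 vesicle traffic genes 30 were higher and 29 lower. The exocytosis genes Syt7, Sytl2 and Sytl4 were lower, Sytl2 with 2745, 2518 and 2550.3 in the corpus and 96.9, 149 and 141 in the forestomach (19.1-fold, log2 difference -4.26 ± 0.16, adjusted p = 1.59e-07) and Syt7 and Sytl4 at -4.92 (range -5.41 to -3.41) and -3.35, and Rab27a and Rab27b, their partners, at -2.19 and -1.35. Rab38, known from lysosome-related organelles, had 152, 159.7 and 162 in the corpus and 1424, 1464 and 1419.5 in the forestomach (8.62-fold, log2 difference 3.11 ± 0.15, adjusted p = 5.33e-07). Hamp2 had a log2 difference of -8.25 without forestomach arrays 2 and 3. Hamp had a log2 difference of -2.92 without forestomach arrays 2 and 3. Mt1 did not pass with probe sets averaged per gene (adjusted p = 0.174).

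Mitochondrial genes were lower as a block, over several lists. Of 81 genes of the respiratory chain and ATP synthase 70 (86.4%) were lower and 3 higher, with a median log2 difference of -0.71. Most single differences were small. Atp5g1, of the ATP synthase rotor, had 3553, 3960.4 and 3549 in the corpus and 988, 1059 and 1201 in the forestomach (3.39-fold, log2 difference -1.76 ± 0.11, adjusted p = 1.68e-06). Uqcrfs1, the Rieske protein, had 5336, 5441 and 4836 in the corpus and 1779, 2080.2 and 1889 in the forestomach (2.71-fold, log2 difference -1.44 ± 0.10, adjusted p = 3.09e-06). The exception in size was Cox7a1, an isoform known from heart and skeletal muscle, with 1583, 1826 and 1527 in the corpus and 34.4, 49.8 and 59 in the forestomach (29.2-fold, log2 difference -4.87 ± 0.18, adjusted p = 1.76e-07); the common isoform Cox7a2 was lower at -0.63. Of the citric acid cycle and pyruvate dehydrogenase, 25 of 34 genes were lower (median -0.99) and 7 higher, or 3 without series 1. The mitochondrial malic enzymes Me2 and Me3 were lower at -2.75 (range -2.84 to -2.12) and -3.17 (range -3.74 to -2.43). Isocitrate dehydrogenases differed by compartment: the mitochondrial Idh2 and Idh3a were lower at -0.96 (range -1.03 to -0.25) and -1.16 and the cytosolic Idh1 higher at 0.45. Acly, which turns citrate into carbon for lipid synthesis, had 1273, 1501 and 1301 in the corpus and 2612, 2756 and 2799 in the forestomach (2-fold, log2 difference 1.0 ± 0.10, adjusted p = 3.89e-05). The kinase Pdk3, a brake on pyruvate oxidation, had 192, 202 and 237 in the corpus and 646, 625 and 619.6 in the forestomach (2.91-fold, log2 difference 1.54 ± 0.13, adjusted p = 1.01e-05). Mitochondrial carriers were lower in 26 of 42 and higher in 4, with the pyruvate carrier Mpc1 at 3833, 4193 and 3984 in the corpus and 1168, 1388 and 1489.9 in the forestomach (2.97-fold, log2 difference -1.57 ± 0.12, adjusted p = 7.65e-06). Mitochondrial ribosome proteins were lower in 40 of 73 and higher in 4, or 0 without series 1, 1 without series 2, series 3 or forestomach arrays 2 and 3 and 2 without corpus array 1 or forestomach array 2 and with probe sets averaged per gene. Parietal cell markers fell beside these lists, and their part in the result was not tested. Idh2 did not pass with probe sets averaged per gene (adjusted p = 0.166). Idh1 did not pass without series 1 (adjusted p = 0.11) and without series 2 (adjusted p = 0.0533).

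Fatty acid and ketone oxidation was lower in 23 of 43 genes and higher in 11. Acadsb had 2393, 2119.7 and 2097 in the corpus and 393, 349.6 and 427 in the forestomach (5.55-fold, log2 difference -2.47 ± 0.17, adjusted p = 3.09e-06) and Acat1 was lower at -1.53. The acyl-CoA thioesterase Acot1 had 27.3, 41.1 and 46.4 in the corpus and 2097, 1692 and 1947 in the forestomach (40.4-fold, log2 difference 5.34 ± 0.22, adjusted p = 2.17e-07), and the peroxisomal genes Acaa1b, Crot and Acox2 were higher at 2.85, 1.80 and 1.56, while the peroxisomal Ehhadh and Acox3 were lower at -1.43 and -0.88. Acot1 has close copies in the same cluster. Glycolysis and gluconeogenesis were higher in 11 of 34 (6 without series 1, and 7 without series 2, corpus array 3, forestomach array 3 or forestomach arrays 2 and 3) and lower in 17. Isoforms of one enzyme differed here as well. Ldhb had 3231, 3335 and 2904 in the corpus and 644, 595 and 709 in the forestomach (4.81-fold, log2 difference -2.27 ± 0.12, adjusted p = 6.6e-07). Ldha had 5203, 5453 and 4605 in the corpus and 5608, 6531 and 5886 in the forestomach and did not pass (adjusted p = 0.0675). Eno3, the muscle enolase, had 122, 152 and 89.7 in the corpus and 463, 487 and 598 in the forestomach (4.07-fold, log2 difference 2.03 ± 0.23, adjusted p = 7.83e-05). Pfkfb4, a regulator of glycolytic flux, had 84, 77.3 and 82 in the corpus and 506, 579 and 517 in the forestomach (5.98-fold, log2 difference 2.58 ± 0.18, adjusted p = 4.45e-06). Aldoc was higher at 1.55, Pkm lower at -1.21 and Pcx, pyruvate carboxylase, lower at -1.45. Ldha passed with median centring (adjusted p = 0.0166) and with limma's trend and robust options (adjusted p = 0.0216).

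Amino acid breakdown and one-carbon genes had the lowest median among the metabolic lists, -1.17, with 34 of 48 lower and 4 higher. Got1 had signals of 2447, 2463 and 2479 in the corpus and 164, 197 and 185 in the forestomach (12.9-fold, log2 difference -3.69 ± 0.16, adjusted p = 2.55e-07). Gnmt had 281, 186 and 309 in the corpus and 3.1, 2.5 and 8.9 in the forestomach (18.3-fold, log2 difference -4.19 ± 0.30, range -5.61 to -3.0, adjusted p = 4.71e-06). Of the enzymes of branched-chain amino acid breakdown, Bcat2, Dbt, Mccc1 and Pccb were lower at -3.08, -2.23, -2.28 and -2.08, and Bcat1 did not pass. The 3 enzymes of serine synthesis went the other way. Phgdh had 521, 475 and 406 in the corpus and 1500.3, 1695 and 1472 in the forestomach (3.29-fold, log2 difference 1.72 ± 0.14, adjusted p = 1.12e-05). Psat1 had 275, 273 and 228 in the corpus and 715, 923 and 716 in the forestomach (2.95-fold, log2 difference 1.56 ± 0.19, adjusted p = 0.000121). Psph had 183, 168 and 175 in the corpus and 763, 776 and 634 in the forestomach (3.96-fold, log2 difference 1.99 ± 0.12, adjusted p = 1.37e-06). All 3 were higher without overlap of arrays. Asns, which makes asparagine, was lower at -2.97 and the folate enzyme Mthfd2 at -2.90. Arginases went both ways. Arg1, the cytosolic form, had 18.5, 3.4 and 25 in the corpus and 372, 436 and 518 in the forestomach (19-fold, log2 difference 4.25 ± 0.34, range 3.36 to 5.07, adjusted p = 8.52e-06). The mitochondrial Arg2 had 138, 122 and 186 in the corpus and 14.8, 13.6 and 26.6 in the forestomach (5.67-fold, log2 difference -2.50 ± 0.29, range -2.99 to -1.86, adjusted p = 9.17e-05). Ckmt1, the mitochondrial creatine kinase, was lower at -1.24 and Odc1, of polyamine synthesis, at -1.07.

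Of 26 cholesterol genes 17 were higher and 4 lower (2 without forestomach arrays 2 and 3), with a median log2 difference of 0.51. Fdps had 951, 861 and 906 in the corpus and 2576, 3006 and 3338 in the forestomach (3.24-fold, log2 difference 1.70 ± 0.15, adjusted p = 1.92e-05). Hsd17b7 was at 2.08 (range 1.41 to 2.19) and Tm7sf2 at 1.67, while Hmgcs1 and Fdft1 did not pass. Lpl, lipoprotein lipase, was lower, with 7588, 7555 and 5821 in the corpus and 751, 654 and 991 in the forestomach (8.72-fold, log2 difference -3.13 ± 0.20, adjusted p = 2.63e-06). Fatty acid, ceramide and barrier lipid genes were higher in 32 of 58 and lower in 15 (median 0.74). Elovl4, which makes the very long fatty acids of barrier ceramides, had 38.3, 24.4 and 34.4 in the corpus and 4464, 4991 and 4279.9 in the forestomach (109.7-fold, log2 difference 6.78 ± 0.19, range 6.19 to 7.12, adjusted p = 7.4e-08). Cers3, the ceramide synthase that uses them, had 92.7, 72.4 and 103 in the corpus and 1952, 1942 and 1613 in the forestomach (18.7-fold, log2 difference 4.22 ± 0.18, adjusted p = 2.3e-07). Cyp4f39, which hydroxylates them, had 45.2, 46.9 and 42.7 in the corpus and 1143, 1113 and 1129.9 in the forestomach (20.8-fold, log2 difference 4.38 ± 0.14, adjusted p = 1.02e-07). Elongation, ceramide formation and hydroxylation of this 1 pathway were thus all higher. Pnpla1 and Elovl6 were at 3.93 and 4.12. Of the other ceramide synthases, Cers5 was higher at 1.52 and Cers2, Cers4 and Cers6 were lower at -1.13, -0.96 and -0.64. Mogat1, of triglyceride synthesis, had 3005, 3276 and 3052 in the corpus and 31.1, 47.8 and 63.6 in the forestomach (56-fold, log2 difference -5.81 ± 0.19, adjusted p = 1.02e-07). Sgms2, of sphingomyelin synthesis, was lower at -3.06 and Sgms1 higher at 0.83.

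Eicosanoid genes were higher in 13 of 32 and lower in 12. The epidermal lipoxygenase Alox12b had 1.8, 5.9 and 2.8 in the corpus and 963, 1062 and 1002 in the forestomach (77.2-fold, log2 difference 6.27 ± 0.21, range 4.92 to 7.91, adjusted p = 1.15e-07), and Aloxe3 was higher at 3.29. Pla2g4e, which frees fatty acids, had 4, 38 and 35.7 in the corpus and 1509.5, 1689 and 1695 in the forestomach (52.7-fold, log2 difference 5.72 ± 0.42, range 4.93 to 6.40, adjusted p = 5.24e-06). The epoxide hydrolase Ephx3 had 34.5, 62.3 and 47.1 in the corpus and 1929, 2060.3 and 2121 in the forestomach (36.1-fold, log2 difference 5.17 ± 0.20, adjusted p = 1.8e-07). Ephx2, the soluble hydrolase, was lower at -1.34. Ptgs2, an inducible prostaglandin synthase, had 80.8, 59.5 and 72.9 in the corpus and 148, 50.6 and 26.1 in the forestomach with a log2 difference of -0.20, which did not pass (adjusted p = 0.735). Cytochrome P450 genes were higher in 12 of 39 (7 with a stricter filter, which tests fewer genes) and lower in 15, with Cyp2f2 at 50, 36.3 and 106 in the corpus and 4729, 4129 and 4966 in the forestomach (67.4-fold, log2 difference 6.07 ± 0.31, adjusted p = 6.83e-07) and Cyp2c65 at 4332, 4646 and 4428 in the corpus and 69.8, 171 and 210 in the forestomach (30.5-fold, log2 difference -4.93 ± 0.32, adjusted p = 2.47e-06). Glutathione, conjugation and aldehyde genes were higher in 32 of 113 and lower in 54. Duox1, which makes hydrogen peroxide, had 35.6, 28.2 and 29 in the corpus and 471, 434 and 461 in the forestomach (11.4-fold, log2 difference 3.52 ± 0.17, adjusted p = 5.12e-07). The sulfotransferase Sult1c2 had 5107, 4995 and 4898 in the corpus and 11.1, 81.7 and 126 in the forestomach (78.4-fold, log2 difference -6.29 ± 0.57, adjusted p = 2.02e-05), and the aldo-keto reductases Akr1c12, Akr1c14 and Akr1c19 were lower at -5.44 (range -5.85 to -4.78), -5.81 and -5.63 (range -6.33 to -4.73); these are near-identical neighbours whose probe sets may share signal. Ptgs2 had log2 differences of 0.97 without forestomach arrays 2 and 3 and -0.79 without forestomach array 1. Cyp2c65 had a log2 difference of -5.81 without forestomach arrays 2 and 3. Sult1c2 had log2 differences of -7.90 without forestomach arrays 2 and 3, -5.49 without forestomach array 1 and -5.47 without series 1.

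Genes of the secretory machinery were lower. Of 82 genes of folding and transport in the endoplasmic reticulum 61 were lower (74.4%) and 4 higher, or 1 without series 1 or series 3 and 2 without series 2, corpus array 2, forestomach array 3 or forestomach arrays 2 and 3, with a median log2 difference of -0.70. The largest falls were those of Tmed6 and Pdia2, at -7.81 (range -8.83 to -6.98) and -7.29. Creld2 had 1438, 1311 and 1471 in the corpus and 386, 483 and 454 in the forestomach (3.15-fold, log2 difference -1.66 ± 0.11, adjusted p = 3.35e-06). The chaperones Hspa5 and Calr were lower at -0.38 and -0.72 and Xbp1, a master factor of secretion, at -1.03. Glycosyltransferases and sulfotransferases, which build mucin sugars, were lower in 48 of 91 and higher in 18. Fut9 had 989.5, 895 and 872 in the corpus and 0.9, 12.8 and 7.3 in the forestomach (57.8-fold, log2 difference -5.85 ± 0.25, range -7.25 to -4.66, adjusted p = 2.69e-07), and Gcnt3 and B3gnt3 were lower at -5.62 (range -7.84 to -4.51) and -5.42 (range -6.22 to -4.46). Galnt18 and St3gal2 were higher at 1.77 and 1.56 (range 0.90 to 1.70). Cell cycle genes were lower in 29 of 80, or 17 without series 1 and 17 without series 3, and higher in 11, or 7 without series 3, 5 without forestomach arrays 2 and 3 and 6 with probe sets averaged per gene. The proliferation marker Mki67 was lower at -0.79 and Foxm1 at -1.66, and Top2a and Pcna did not pass. Anln was higher at 1.09. Tmed6 had a log2 difference of -8.83 without forestomach arrays 2 and 3. Pdia2 had log2 differences of -8.66 without forestomach arrays 2 and 3, -6.60 without forestomach array 1, -6.53 without series 1 and -7.97 without series 3. Fut9 had a log2 difference of -6.44 without forestomach arrays 2 and 3. Gcnt3 had log2 differences of -7.84 without forestomach arrays 2 and 3, -4.51 without forestomach array 1, -6.24 without forestomach array 3, -4.53 without series 1 and -6.22 without series 3. Foxm1 had a log2 difference of -2.58 without forestomach arrays 2 and 3. Hspa5 did not pass with median centring (adjusted p = 0.053), without forestomach arrays 2 and 3 (adjusted p = 0.0566) and without series 1 (adjusted p = 0.131). Mki67 did not pass without series 1 (adjusted p = 0.126), without corpus array 2 (adjusted p = 0.0576), without forestomach array 1 (adjusted p = 0.0595), without forestomach array 3 (adjusted p = 0.0501) and without series 3 (adjusted p = 0.0845).

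**Figure D4:**
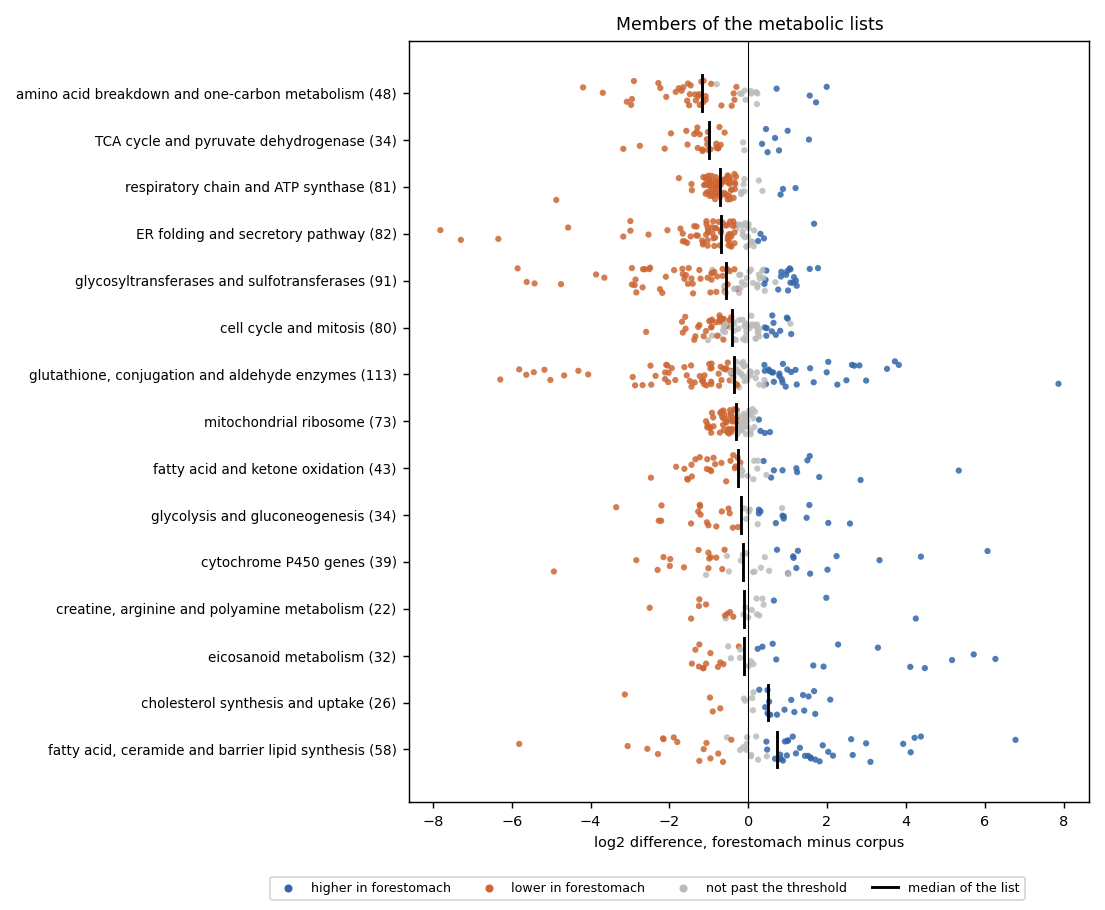
Log2 difference (forestomach minus corpus) of every tested member of the metabolic lists, 1 point per gene, coloured by whether it was called higher, lower or neither. The black bar is the median of the list, which runs from -1.17 for amino acid breakdown to 0.74 for fatty acid, ceramide and barrier lipid synthesis.

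Smooth muscle and matrix lists had larger shares of higher genes in the forestomach stripes than the 30.0% of all genes. The matrix lists also hold genes known from skin or epithelium, such as Ecm1 and Lamb3. Of 36 smooth muscle genes 34 were higher and 1, Actc1, lower; with alternatives 0 to 2 were lower, since Actc1, at -0.78, lost its call in 12 of 20 of them. The phosphatase inhibitor Ppp1r14a had signals of 84.5, 157 and 119 in the corpus and 964, 969 and 1059 in the forestomach (7.95-fold, log2 difference 2.99 ± 0.19, adjusted p = 2.17e-06). Myh11, the smooth muscle myosin, had 2574, 3468 and 2402 in the corpus and 8378, 8416 and 9143 in the forestomach (3.1-fold, log2 difference 1.63 ± 0.20, adjusted p = 0.00012). The median of the list was 1.42. Collagens were higher in 21 of 35 and lower in 5, with a largest log2 difference of 6.06. Col17a1 had log2 differences of 7.30 with a pseudocount of 1 and 4.92 with a larger one. Col23a1, a transmembrane collagen, had 32, 71.5 and 54 in the corpus and 765, 695 and 753 in the forestomach (12.4-fold, log2 difference 3.64 ± 0.23, range 2.86 to 3.90, adjusted p = 2.17e-06). Basement membrane collagen chains differed as pairs, with Col4a5 and Col4a6 higher at 1.45 and 1.84 and Col4a3 and Col4a4 lower at -1.87 and -1.64. Laminins and integrins were higher in 19 of 45 and lower in 5 (3 without forestomach arrays 2 and 3). Lamb2 and Npnt were higher at 1.71 and 2.36 (range 1.51 to 2.47), while Lamb3, Itga6 and Itgb6, all known from epithelium, were lower at -0.92, -0.94 and -1.96. Elastic fibre and matrix glycoproteins were higher in 38 of 57 and lower in 5, with Ecm1, known from skin, at 462, 442 and 419.8 in the corpus and 4029, 4534 and 4275 in the forestomach (9.51-fold, log2 difference 3.25 ± 0.14, adjusted p = 2.39e-07), Pcolce2 at 2.55, Smoc2 at 2.23 and its relative Smoc1 lower at -2.38. Matrix proteases and their inhibitors were higher in 17 of 38 and lower in 4 (2 without series 2 or with a stricter filter), with Adamts5 and Reck at 2.52 (range 1.51 to 2.96) and 2.02.

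Enteric neuron and glia genes were higher in 20 of 33 and lower in 4, or 2 without forestomach array 1 or series 2, with Cryab at 404, 525 and 369.9 in the corpus and 1907, 2515 and 2124 in the forestomach (4.97-fold, log2 difference 2.31 ± 0.15, adjusted p = 2.7e-06), the substance P gene Tac1 at 267, 342 and 351 in the corpus and 1032, 1051 and 966 in the forestomach (3.13-fold, log2 difference 1.65 ± 0.27, adjusted p = 0.000834) and the glial cadherin Cdh19 at 1.66. Sox10 and Gfap did not pass. Of 9 genes of interstitial cells of Cajal and PDGFRA cells 4 were higher and 1 lower (0 without series 1 or series 2, and 2 without forestomach array 3, with quantile normalization or with probe sets averaged per gene). The gap junction gene Gja1 had 1379, 1434 and 1315 in the corpus and 8834, 8982 and 8959.8 in the forestomach (6.45-fold, log2 difference 2.69 ± 0.08, adjusted p = 9.07e-08), whereas Kit and Pdgfra, which define these cells, did not pass. Gja1 alone had a forestomach mean of 8925, of a summed list signal of 12866. Which cells held it was not tested. Vessel genes were higher in 13 of 34 (38.2%) and lower in 9 (26.5%), against 30.0% and 29.9% of all genes. Plvap, of fenestrated capillaries, had 1154, 1072 and 1242 in the corpus and 516, 336 and 257 in the forestomach (3.19-fold, log2 difference -1.67 ± 0.21, adjusted p = 0.000162), and the endothelial genes Pecam1, Cdh5 and Tie1 did not pass. Lyve1, of lymph vessels and macrophages, had 179, 170.2 and 256 in the corpus and 646, 657 and 527 in the forestomach (2.96-fold, log2 difference 1.57 ± 0.16, adjusted p = 5e-05). Of 11 adipocyte genes 4 were higher and 3 lower. Cidea, a lipid droplet protein, had 24.4, 15 and 29.8 in the corpus and 597, 566 and 591 in the forestomach (18.4-fold, log2 difference 4.20 ± 0.19, range 3.52 to 4.66, adjusted p = 3.61e-07), while the adipocyte markers Adipoq and Fabp4 did not pass.

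Macrophage and dendritic cell genes were higher in 19 of 28 and lower in 2, or 1 without series 1, series 2 or forestomach arrays 2 and 3. Retnla, of alternatively activated macrophages, had 341, 454 and 499.8 in the corpus and 2505, 2224 and 1343 in the forestomach (4.51-fold, log2 difference 2.17 ± 0.28, adjusted p = 0.000173). Cd163, of resident macrophages, had 69.6, 90.7 and 109 in the corpus and 425, 365 and 372 in the forestomach (4.04-fold, log2 difference 2.01 ± 0.18, adjusted p = 1.83e-05). The class II genes H2-Ab1, H2-Eb1 and Cd74 were higher at 1.21, 0.95 and 0.97, and the macrophage markers Adgre1 and Itgam did not pass. Lyz1 and Lyz2 were higher at 1.68 and 1.20; they are close copies. T, NK and innate lymphoid cell genes were higher in 7 of 13 and lower in 0, or 1 without series 2, but the defining T cell genes Cd3d, Cd3e and Cd3g did not reach the filter, and Gata3, Rora and Thy1 of this list are known from other cells too. Zap70 had 54, 59.6 and 33.6 in the corpus and 234, 397 and 338 in the forestomach (5.64-fold, log2 difference 2.50 ± 0.27, adjusted p = 6.02e-05). B and plasma cell genes were lower in 6 of 10 and higher in 1. Igha, the IgA heavy chain, had 2469, 1893 and 2933 in the corpus and 454, 295 and 256 in the forestomach (7.17-fold, log2 difference -2.84 ± 0.27, adjusted p = 2.88e-05), and Jchain, which joins IgA chains, was lower at -1.65. Pigr, the epithelial receptor that carries IgA to the lumen, had 275, 132 and 601 in the corpus and 17.1, 37.2 and 20.2 in the forestomach (8.65-fold, log2 difference -3.11 ± 0.46, range -3.88 to -2.50, adjusted p = 0.000437). Antibody, joining chain and carrier were lower together with Ccl28. The plasma cell marker Sdc1, which squamous epithelium also expresses, was higher at 1.31. Mast cell and granulocyte genes were higher in 6 of 19 and lower in 7, shares of 31.6% and 36.8%. The mucosal protease Mcpt1 had 127, 67.2 and 216 in the corpus and 5.4, 3.2 and 8.4 in the forestomach (8.71-fold, log2 difference -3.12 ± 0.34, range -4.29 to -2.10, adjusted p = 6.17e-05). Its relative Mcpt2 had 368, 498 and 613 in the corpus and 6, 4.9 and 20.2 in the forestomach (25.8-fold, log2 difference -4.69 ± 0.28, range -5.66 to -3.66, adjusted p = 1.5e-06). The connective tissue protease Mcpt4 had 8.3, 41.8 and 6.7 in the corpus and 168, 224 and 201 in the forestomach (8.29-fold, log2 difference 3.05 ± 0.38, range 2.26 to 3.76, adjusted p = 0.000155) and Cpa3, common in both, was higher at 0.92. The calgranulin S100a9, found in neutrophils and squamous epithelium, had 19.7, 1.7 and 25.6 in the corpus and 927, 1011 and 1309 in the forestomach (47.2-fold, log2 difference 5.56 ± 0.41, range 4.60 to 6.55, adjusted p = 5.77e-06); the neutrophil genes Ltf, Ngp and Mpo did not pass. Pigr had log2 differences of -3.88 without series 2 and -2.50 without series 3.

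**Figure D5:**
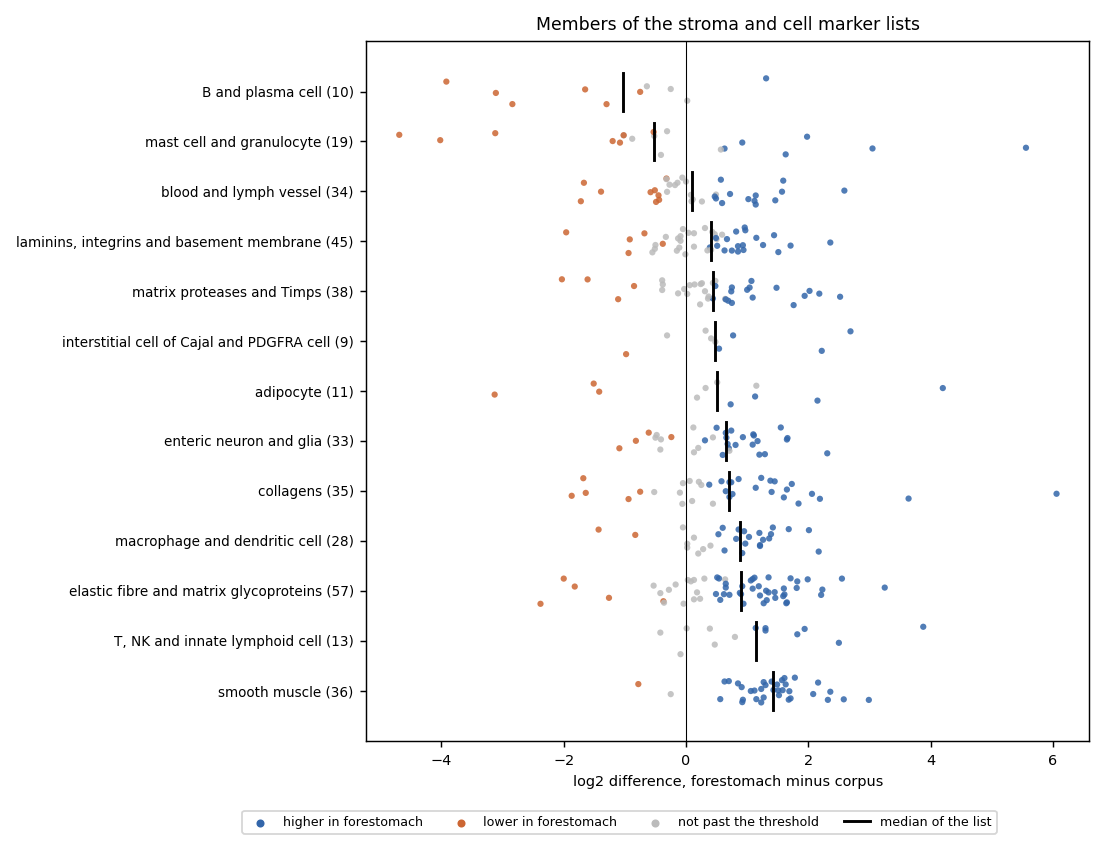
Log2 difference (forestomach minus corpus) of every tested member of the stroma and cell marker lists with 5 or more members, 1 point per gene, coloured by its call, with the median of each list as a black bar. Smooth muscle has the highest median, 1.42, and B and plasma cell genes the lowest, -1.03.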

How the data were processed

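RNA of 3 pools per zone was measured on 1-colour Affymetrix arrays with 45101 probe sets. The authors deposited an intensity per probe set, on a linear scale, made with MAS5 per the submitters' processing notes; which version was run, and with which settings, is not given in the sources used here. A trimmed mean of 200.0 on every array shows global scaling, and depth has no meaning here, so the 3 arrays per zone limit the precision. Median signals were 47.9 to 57.1. Symbols came from GEO's platform annotation, in which 932 probe sets carry several and 9211 none. Probe sets above the 40th percentile of their array (29.0 to 36.5) on 3 or more of the 9 arrays were kept, the brightest per gene was used, and log2(signal + 9.8) was fitted over all 3 zones with limma 3.58.1 in R 4.3.3 (lmFit and eBayes, Benjamini-Hochberg adjustment), which was tested on simulated data. Of 4033 called genes with other probe sets, 281 had one called the opposite way. Figures were drawn with matplotlib 3.10.9 in Python 3.11.15. Per the labels, arrays of 1 series share mice. Deviations of same-numbered corpus and forestomach arrays correlated at -0.00496, 0.0262 and -0.00584, and the pairing entered as an alternative. Genes were named by rule: a fixed set of reference genes, of which 7 did not reach the filter, and, per list and direction, up to 3 called genes with the largest difference, no overlap and a mean signal of at least 100 in the higher zone (5 for families of over 100). Of 380 genes with values here, 135 lie outside that rule and were chosen after their values were seen, and the rule takes more genes than are described. Members and lists were chosen with earlier results of these data known. Promoters came from RefSeq's table (GRCm38.p6).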

Additional observations from a re-analysis of the deposited data

How the results depend on the processing

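Over 20 alternatives (pseudocount, filter, normalization, mean of a gene's probe sets, limma options, each array or series left out), the count of genes higher in the forestomach lay between 3007 and 4616, of lower genes between 3120 and 4194 and of 2-fold changes between 2845 and 3757. With the pairing of series as a replicate block the counts were 4060, 4085 and 3482. Without forestomach arrays 2 and 3 they were 3007, 3120 and 3495. Median centring moved the median of all genes by 0.11 and quantile normalization by 0.01. Of 363 called genes that the naming rule took, 328 kept their call and direction in all 20 alternatives and 34 lost the call in at least 1. The direction of 1 turned: Mbp, a myelin gene, had a log2 difference of -0.82 and of 0.16 with the mean of its probe sets (adjusted p = 0.107). The cause was not tested. Dim values limit the folds of genes near the floor of the arrays, where 3 values were 0.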

Other observations

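Gene families of cell contacts and the cell surface, taken whole by their symbols, held members that differed in opposite directions. So did all genes, with 30.0% higher and 29.9% lower. The shares higher and lower were 85.7% and 14.3% for connexins, 50% and 28.6% for claudins and 54.5% and 45.5% for annexins. They were 47.8% and 39.1% for tetraspanins, 65.4% and 15.4% for serpins and 30.8% and 30.8% for cathepsins, the last near those of all genes. The families were picked after other results of these data were seen. Keratins, S100 proteins and the proteasome were counted too and are not described as families. Connexins, which form the channels of gap junctions, were higher in the forestomach in 6 of 7 members and lower in 1. Gjb2 had signals of 61.6, 31.3 and 47 in the corpus and 3158, 3898 and 3292 in the forestomach (62.6-fold, log2 difference 5.97 ± 0.24, adjusted p = 2.17e-07). Gjb6 was higher at 5.50 (range 4.68 to 6.07) and Gjb5 at 4.21 (range 2.90 to 5.92), and both are known from skin. Gjb1, the connexin of liver and glands, had 1037, 1007 and 1095 in the corpus and 55.5, 41.8 and 46.9 in the forestomach (18.3-fold, log2 difference -4.20 ± 0.11, adjusted p = 6.19e-08). Claudins, the strands of tight junctions, were higher in 7 of 14 (4 without forestomach array 1, series 1 or forestomach arrays 2 and 3) and lower in 4 (2 without series 3 or forestomach arrays 2 and 3). Cldn1, of the skin barrier, had 23.4, 7.8 and 19.9 in the corpus and 496, 428 and 531 in the forestomach (19-fold, log2 difference 4.25 ± 0.27, range 2.68 to 4.88, adjusted p = 1.96e-06), and Cldn23 was at 4.26 (range 3.60 to 4.68), while Cldn8 was lower at -3.71 (range -4.68 to -2.79). Cldn18 was lower as well and had the largest difference of the family. Cldn8 had a log2 difference of -4.55 without forestomach arrays 2 and 3.

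Annexins, which bind membranes in the presence of calcium, were called in all 11 tested members, 6 higher (4 without series 1 or forestomach arrays 2 and 3) and 5 lower. Anxa9 had 33.7, 28.5 and 21.9 in the corpus and 2666, 2551 and 2504 in the forestomach (68.8-fold, log2 difference 6.11 ± 0.19, range 5.47 to 6.49, adjusted p = 8.8e-08). Anxa10 had 11360.1, 10924 and 8593 in the corpus and 10.3, 538 and 753 in the forestomach (50.3-fold, log2 difference -5.65 ± 1.15, adjusted p = 0.00267). Tetraspanins were higher in 11 of 23 and lower in 9, with Tspan1 and Tspan8 at -6.15 (range -7.77 to -5.33) and -6.02 (range -7.85 to -4.22). Serpins, inhibitors of proteases, were higher in 17 of 26 and lower in 4 (2 without corpus array 2, forestomach array 1 or series 1 and with median centring, 1 with a stricter filter). Serpinb12 had 119.6, 53.1 and 82.3 in the corpus and 11162, 11130.2 and 11310.1 in the forestomach (123-fold, log2 difference 6.95 ± 0.27, range 5.71 to 7.20, adjusted p = 1.8e-07) and Serpina12 was at 6.94 (range 5.25 to 7.67). Cathepsins, proteases of the lysosome, were higher in 4 of 13 and lower in 4, with Ctse at -5.13 (range -7.54 to -3.62) and Ctsl at 1.87 (range 1.26 to 1.98). Ribosomal proteins of the cytosol were higher in 34 of 43 and lower in 0, with a median log2 difference of 0.44 (23 and 0.29 with quantile normalization, 36 and 0.55 with median centring, 20 and 0.49 without forestomach arrays 2 and 3), against 30.0% of all genes higher and a median of -0.01. Anxa10 had log2 differences of -8.99 without forestomach arrays 2 and 3, -3.98 without forestomach array 1, -6.37 without forestomach array 2, -6.61 without forestomach array 3, -3.91 without series 1, -6.32 without series 2 and -6.73 without series 3. Tspan1 had log2 differences of -7.77 without forestomach arrays 2 and 3, -5.33 without forestomach array 1 and -5.36 without series 1. Tspan8 had log2 differences of -7.85 without forestomach arrays 2 and 3, -5.10 without forestomach array 1, -6.65 without forestomach array 3, -5.04 without series 1 and -6.67 without series 3. Ctse had log2 differences of -7.54 without forestomach arrays 2 and 3, -3.92 without forestomach array 1, -5.77 without forestomach array 3, -3.83 without series 1 and -5.92 without series 3.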
